A study of Arabidopsis thaliana with 6 samples.

Results

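The genes described here encode the enzymes and regulators that make and break down tetrapyrroles, the ring-shaped pigments and cofactors that include chlorophyll, heme and siroheme. There were 35 such genes, chosen by locus identifier from the 33602 genes of the deposited expression table, and all 35 were found in it. They cover 11 genes of the steps common to every tetrapyrrole, 12 of the chlorophyll branch, 2 regulators, 3 of the heme and siroheme branches and 7 of chlorophyll breakdown and the chlorophyll b cycle. RNA was taken from whole seedlings of the Columbia (Col) ecotype of Arabidopsis thaliana, a small crucifer used as a model plant, after 12 days on agar with 0.5% sucrose and nitrogen-free mineral salts. Glutamine (Gln) at 5 mM was the only nitrogen source for 3 libraries, and NH4NO3 at 5 mM was the only one for the other 3. No genotype other than Col was used. Both groups had the same salts, sucrose and light cycle of 16 h light and 8 h dark at 22 °C. Both also had 2 days of cold. No label ties a replicate to its own plate or day of growth, and the spread behind each p-value may be technical. The Gln medium held neither nitrate nor ammonium, and the presence of Gln and the lack of those ions cannot be told apart.

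Plants make tetrapyrroles in the plastid from glutamate. Glutamyl-tRNA reductase (HEMA) commits carbon to the pathway, the product is built up through 5-aminolevulinic acid to protoporphyrin IX, and there the route splits. Magnesium chelatase, of the CHLH, CHLD and CHLI subunits, leads to chlorophyll, while ferrochelatase (FC) leads to heme. An earlier branch, opened by the methyltransferase UPM1, gives siroheme, the cofactor of nitrite reductase and sulfite reductase. Free intermediates are toxic in the light, and the regulators FLU and GUN4 hold or promote flow through the pathway. Chlorophyll is taken apart by the STAY-GREEN proteins NYE1 and NYE2, the pheophytinase PPH and the oxygenase PAO, after chlorophyll b has been converted to chlorophyll a by NYC1, NOL and HCAR.

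The libraries held 30269358 to 35421767 reads in genes with Gln and 28654470 to 31980696 with NH4NO3, as implied by the deposited values. Levels are given in RPKM, a read number divided by gene length and by library size, the size being adjusted by the TMM method. Each log2 fold change is the mean of log2(RPKM + 1) in Gln less that in NH4NO3, and a gene is said to have risen or fallen where limma gave a Benjamini-Hochberg adjusted p under 0.05 over 19284 genes. NH4NO3 replicate 2 stood apart in its read numbers, since even read numbers were found in 44.9% of its genes with 1 to 100 reads (95% exact binomial interval 43.7% to 46.1%), against 57.8% to 60.9% in the other 5 libraries. Within its group it also had the highest value for all 14 markers of leaf photosynthesis, and Gln replicate 2 had the lowest for all 14 within its own. Each count of a gene list that differed when either of these libraries was left out is therefore also given without it.

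In seedlings on Gln 9 of the 12 chlorophyll branch genes fell and the 3 POR genes did not pass the test, as did not 7 of 11 genes of the common steps and 5 of 7 of breakdown, and UPM1 fell furthest. Of the 35 genes 15 fell, 2 rose and 18 did not pass. Over all 19284 genes tested, 41.2% passed, 19.8% as lower and 21.4% as higher in Gln. The genes that fell are 42.9% of the set. Among the 13981 genes whose mean reached 5 RPKM, 21.2% fell and 23.9% rose. The median log2 fold change was -0.22 for the 35 genes and -0.02 for all genes tested. Without Gln replicate 2, 14 genes fell and 3 rose, with a median of -0.15. Without NH4NO3 replicate 2, 14 fell and 1 rose, with a median of -0.16. The counts over all genes tested dropped as well, from 3816 lower and 4126 higher to 3085 and 3513 without Gln replicate 2. Without NH4NO3 replicate 2 they were 2595 and 3305. In 20 of the 35 genes every Gln value lay below every NH4NO3 value, and in 3 every Gln value lay above. The same was true of 27.1% and 26.5% of all genes tested. Since the samples are whole seedlings, a changed share of leaf or root cells and a changed amount of RNA per cell cannot be told apart.

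**Figure D1:**
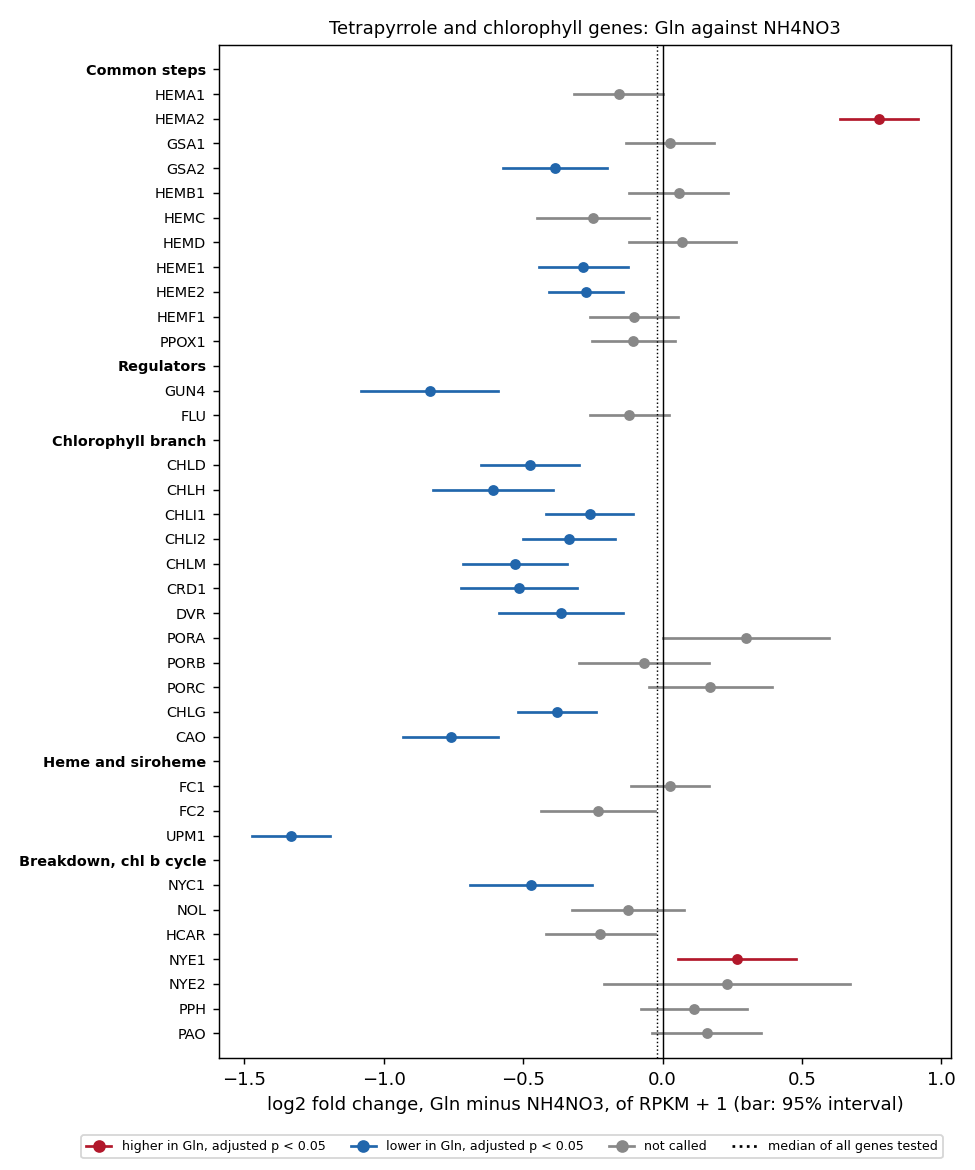
Log2 fold change, Gln minus NH4NO3, of log2(RPKM + 1) for each of the 35 genes, ordered by role, with 95% intervals from limma (3 libraries per group). Blue genes fell, red genes rose and grey genes were not called at an adjusted p under 0.05. UPM1 lies furthest to the left at -1.33 and HEMA2 furthest to the right at 0.78.

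The promoters of the 3 genes that fell most and of the gene that rose most are shown beside these changes. Each is 300 bases long, from 250 bases before the annotated start of the gene to 50 bases after it, read 5′ to 3′ on the strand of the gene from the RefSeq TAIR10.1 genome. Capitals mark matches, on either strand, to 4 short motifs known from plant promoters. These are the G-box CACGTG, bound by bZIP and bHLH factors such as HY5 and the PIF proteins, CCAATC, linked to GLK factors, GATAAG, of the kind bound by GATA factors, and CTTNNNNNNNNNNAAG, the spaced core of the nitrate-responsive element bound by NLP factors, of which the fixed letters only are in capitals.
UPM1 (chr5:16365650-16365949, plus strand): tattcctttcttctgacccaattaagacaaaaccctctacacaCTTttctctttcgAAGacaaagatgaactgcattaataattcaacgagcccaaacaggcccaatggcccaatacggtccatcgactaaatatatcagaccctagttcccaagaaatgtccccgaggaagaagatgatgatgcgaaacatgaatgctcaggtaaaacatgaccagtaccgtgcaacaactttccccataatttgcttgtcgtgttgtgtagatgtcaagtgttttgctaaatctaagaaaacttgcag
GUN4 (chr3:21949747-21950046, minus strand): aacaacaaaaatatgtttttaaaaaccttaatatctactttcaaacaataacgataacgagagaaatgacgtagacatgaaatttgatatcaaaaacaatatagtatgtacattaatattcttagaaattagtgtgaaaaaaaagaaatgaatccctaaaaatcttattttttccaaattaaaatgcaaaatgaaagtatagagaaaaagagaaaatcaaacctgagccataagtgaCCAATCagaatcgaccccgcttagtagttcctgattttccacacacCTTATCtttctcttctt
CAO (chr1:16851222-16851521, minus strand): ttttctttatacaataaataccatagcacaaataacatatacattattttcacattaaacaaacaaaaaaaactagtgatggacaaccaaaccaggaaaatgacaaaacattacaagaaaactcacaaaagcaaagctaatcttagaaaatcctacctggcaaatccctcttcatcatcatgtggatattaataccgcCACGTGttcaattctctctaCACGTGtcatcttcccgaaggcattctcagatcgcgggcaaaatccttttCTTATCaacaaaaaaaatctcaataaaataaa
HEMA2 (chr1:3239505-3239804, minus strand): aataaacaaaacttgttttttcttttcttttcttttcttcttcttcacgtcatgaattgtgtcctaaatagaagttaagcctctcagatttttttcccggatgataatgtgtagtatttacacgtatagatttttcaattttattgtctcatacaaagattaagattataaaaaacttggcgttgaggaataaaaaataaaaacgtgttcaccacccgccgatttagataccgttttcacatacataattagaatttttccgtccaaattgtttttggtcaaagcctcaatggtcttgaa
In these windows UPM1 held the spaced core, GUN4 held CCAATC and GATAAG, and CAO held a pair of G-boxes and a GATAAG. The GATAAG of GUN4 and of CAO lies on the other strand and reads CTTATC here. In both genes it lies after the annotated start. HEMA2 held none of the 4, which says only that these letters are not in this window. Over all 35 promoters the G-box was found in 7, CCAATC in 6, GATAAG in 7 and the spaced core in 3. Among the promoters of 27443 nuclear protein-coding genes, the G-box was found in 7.68%, CCAATC in 12.3%, GATAAG in 14.6% and the spaced core in 9.72%. The G-box promoters belonged to HEMD, CRD1, CAO, FC2, NYC1, NOL and NYE2, of which CRD1, CAO and NYC1 fell and the other 4 did not pass the test. The spaced core was in UPM1, which fell, in NYE1, which rose narrowly, and in PPOX1, which did not pass. A match is a description of the letters and does not show that a factor binds there.

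UPM1, the uroporphyrinogen III methyltransferase that opens the siroheme branch, had the largest change of the set. It stood at 23.4, 25.6 and 24.8 RPKM in the Gln libraries, against 64.6, 62.7 and 62.9 RPKM in the NH4NO3 libraries. The groups lay far apart and each was tight. The log2 fold change was -1.33 ± 0.06 (SE), with a limma adjusted p of 7.9e-07, and it stayed between -1.41 and -1.21 under every alternative tried. The gene (AT5G40850) lies on chromosome 5 at 16365900 to 16369316, plus strand, and overlaps AT5G40855 on the other strand over 203 bases, but that gene averaged only 0.0659 RPKM. The later siroheme enzyme SIRB, the ferrochelatase of that branch, was looked at after the values were seen. It was at 25.6, 25.8 and 21.4 RPKM with Gln, against 24.4, 24.2 and 24.9 RPKM with NH4NO3, and did not pass the test (log2 fold change -0.01 ± 0.08, adjusted p = 0.90).

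Among the common steps, 1 gene rose, 3 fell and 7 did not pass, where 21.4% of all genes tested rose and 19.8% fell. Glutamyl-tRNA reductase, the committed step, is encoded by HEMA1, the isoform of green tissue, and HEMA2, known also from roots and other non-green tissue. HEMA2 (AT1G09940, chromosome 1 at 3236908 to 3239554, minus strand) was at 81.0, 82.4 and 75.0 RPKM with Gln, against 45.9, 45.5 and 46.4 RPKM with NH4NO3. It rose by 0.78 ± 0.06 on the log2 scale (limma adjusted p = 1.6e-05), and this call held under all 13 alternatives. HEMA1 (AT1G58290) was at 172, 167 and 174 RPKM with Gln, against 175, 202 and 196 RPKM with NH4NO3. The HEMA1 values did not overlap, but the change of -0.16 had a 95% interval of -0.32 to 0.00 and an adjusted p of 0.11, which was 0.034 without NH4NO3 replicate 1 and 0.0095 after quantile normalization. After that normalization the median change over all genes tested was -0.05, in place of -0.02. HEMA2 made up 31.8% ± 1.46 of the summed HEMA1 and HEMA2 RPKM with Gln, against 19.4% ± 1.23 with NH4NO3 (SD, n = 3 each). The exact permutation test of that difference gave p = 0.10 (2-sided), the smallest that 3 against 3 libraries allow. Of 9 isoform shares compared in this way 5 gave that value, which became 0.18 after Benjamini-Hochberg adjustment over the 9, so no exact permutation test of a share could pass.

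The next enzyme, glutamate-1-semialdehyde aminotransferase, which makes 5-aminolevulinic acid, also has a pair of genes. GSA2 (AT3G48730) was at 54.7, 47.3 and 53.5 RPKM with Gln, against 72.8, 69.9 and 61.5 RPKM with NH4NO3, and fell by 0.39 on the log2 scale (limma adjusted p = 0.0052). GSA1 (AT5G63570) was at 57.2, 53.0 and 54.6 RPKM with Gln, against 57.6, 54.1 and 50.1 RPKM with NH4NO3. Its groups overlapped, with a change of 0.03 and a 95% interval of -0.13 to 0.19. GSA1 therefore gave 51.5% ± 1.19 of the GSA total with Gln, against 44.2% ± 0.645 with NH4NO3, without overlap (exact permutation p = 0.10, the smallest possible). The uroporphyrinogen decarboxylase genes HEME1 and HEME2 fell side by side. HEME1 was at 61.0, 54.6 and 62.3 RPKM with Gln, against 69.7, 75.8 and 71.4 RPKM with NH4NO3 (limma adjusted p = 0.011). HEME2 was at 79.7, 75.7 and 81.3 RPKM with Gln, against 94.95, 96.3 and 95.5 RPKM with NH4NO3 (limma adjusted p = 0.0052). The share of HEME2 in the pair was 57.1% ± 0.858 with Gln and 56.9% ± 0.876 with NH4NO3 (exact permutation p = 0.90), and its sign depended on which library was left out.

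The other common-step genes are single in the set and none passed the test. HEMB1, which joins 5-aminolevulinic acid into porphobilinogen, averaged 99.7 ± 4.83 RPKM with Gln and 95.9 ± 8.65 RPKM with NH4NO3 (mean ± SD, n = 3 each here and below). HEMC, which links porphobilinogens into a chain, averaged 112 ± 11.6 RPKM with Gln and 133 ± 9.93 RPKM with NH4NO3, without overlap. Its limma adjusted p of 0.0501 lay at the threshold, and it was called lower under 5 of the 13 alternatives. HEMD, which closes the ring, averaged 18.0 ± 0.584 RPKM with Gln and 17.2 ± 1.80 RPKM with NH4NO3 and was the lowest of the common steps. HEMF1, a coproporphyrinogen oxidase, averaged 83.4 ± 3.56 RPKM with Gln and 89.7 ± 6.07 RPKM with NH4NO3. PPOX1, the protoporphyrinogen oxidase, averaged 52.1 ± 3.35 RPKM with Gln and 56.0 ± 0.334 RPKM with NH4NO3. In these 5 genes the 95% intervals of the log2 change ran between -0.45 and 0.26. PPOX1 overlaps AT4G01700 on the other strand over 121 bases, and that gene averaged 54.5 RPKM with Gln and 22.7 RPKM with NH4NO3.

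**Figure D2:**
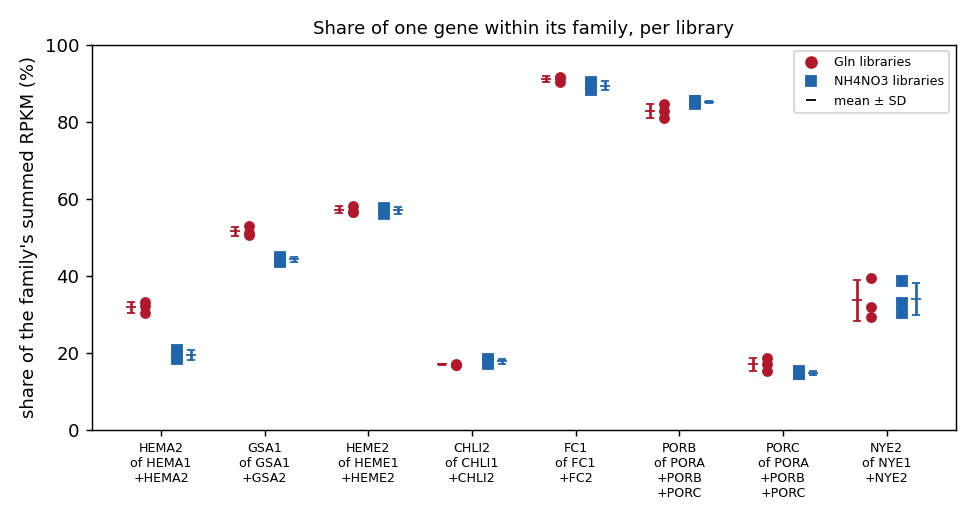
Share of 1 gene in the summed RPKM of its family (%), per library, with mean ± SD beside the points (3 libraries per group). HEMA2 holds 31.8% of its pair with Gln and 19.4% with NH4NO3, GSA1 holds 51.5% and 44.2%, and the shares of HEME2, FC1, PORC and NYE2 overlap between the groups.

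Both regulators had lower mean levels with Gln, and GUN4 passed the test. GUN4 (AT3G59400), which binds porphyrins and stimulates magnesium chelatase, was at 21.1, 25.1 and 26.5 RPKM with Gln, against 40.5, 51.0 and 40.7 RPKM with NH4NO3. The highest Gln library was well below the lowest NH4NO3 library, and NH4NO3 replicate 2 was the highest of all. The log2 fold change was -0.84 ± 0.11 (limma adjusted p = 0.00030), and over the alternatives it ran from -0.90 to -0.73. GUN4, on chromosome 3 at 21948501 to 21949796, minus strand, overlaps AT3G59410 on the other strand over 946 bases, and the library kit does not mark strand. That neighbour averaged 4.34 RPKM with Gln and 5.74 RPKM with NH4NO3. FLU, which restrains HEMA in the dark, was at 82.6, 89.1 and 89.9 RPKM with Gln, against 92.4, 96.4 and 95.2 RPKM with NH4NO3. The change of -0.12 did not pass (adjusted p = 0.16), although the groups did not overlap. It passed after quantile normalization (adjusted p = 0.018), where the median change over all genes tested was -0.05 in place of -0.02.

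In the chlorophyll branch 9 of 12 genes fell and none rose, with a median log2 fold change of -0.37. For all genes tested, 19.8% fell and 21.4% rose, with a median of -0.02. Without Gln replicate 2, 8 branch genes fell and 1 rose, and without NH4NO3 replicate 2, 8 fell and none rose. Of all 19284 genes, 3816 fell with all 6 libraries, 3085 without Gln replicate 2 and 2595 without NH4NO3 replicate 2. All 3 kinds of magnesium chelatase subunit fell. CHLH (AT5G13630), the large subunit that holds the porphyrin, was at 94.5, 74.1 and 88.9 RPKM with Gln, against 122, 141 and 129 RPKM with NH4NO3. Its log2 fold change was -0.61 ± 0.10 (limma adjusted p = 0.00093). CHLD was at 43.3, 39.2 and 43.3 RPKM with Gln, against 61.3, 61.6 and 53.1 RPKM with NH4NO3, with a log2 fold change of -0.47 ± 0.08. The ATPase subunit genes CHLI1 and CHLI2 fell less. CHLI1 was at 135, 120.0 and 135 RPKM with Gln, against 158, 158 and 151 RPKM with NH4NO3 (log2 fold change -0.26, limma adjusted p = 0.014). CHLI2 was at 27.3, 24.3 and 27.7 RPKM with Gln, against 32.6, 35.4 and 32.8 RPKM with NH4NO3 (log2 fold change -0.33, limma adjusted p = 0.0056). CHLI1 no longer passed without Gln replicate 2 (adjusted p = 0.057) or without NH4NO3 replicate 2 (adjusted p = 0.052). CHLI2 held 16.9% ± 0.0888 of the CHLI total with Gln and 17.7% ± 0.623 with NH4NO3 (exact permutation p = 0.10, the smallest possible).

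After the chelatase, CHLM methylates magnesium protoporphyrin and CRD1, a subunit of the cyclase, closes the isocyclic ring. CHLM was at 135, 129 and 139 RPKM with Gln, against 172, 208 and 204 RPKM with NH4NO3, and fell by 0.53 on the log2 scale (limma adjusted p = 0.00088). CRD1 (AT3G56940) had the highest level of the whole set. It was at 580, 515 and 574 RPKM with Gln, against 725, 880 and 782 RPKM with NH4NO3, and its log2 change was -0.51 ± 0.09 (limma adjusted p = 0.0020). In both genes every Gln value lay below every NH4NO3 value. DVR, the divinyl reductase, averaged 28.8 ± 4.11 RPKM with Gln and 37.2 ± 1.504 RPKM with NH4NO3 and fell (limma adjusted p = 0.015), a call lost with no filter on low values (adjusted p = 0.089).

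The light-dependent protochlorophyllide oxidoreductases, which use light to reduce protochlorophyllide, were the only 3 genes of this branch that did not pass the test. PORB was at 339, 286 and 383 RPKM with Gln, against 346, 369 and 334 RPKM with NH4NO3, and the Gln libraries spanned the whole NH4NO3 range. Its log2 fold change was -0.07, with a 95% interval of -0.30 to 0.17. PORC was at 78.5, 58.4 and 68.6 RPKM with Gln, against 58.6, 62.6 and 59.8 RPKM with NH4NO3. Its change of 0.17 had an interval of -0.05 to 0.39 and passed as higher without Gln replicate 2 (adjusted p = 0.032). PORA, known from dark-grown seedlings, had the lowest level of the set, with 28 to 68 reads per library. It was at 1.40, 1.06 and 1.23 RPKM with Gln, against 0.889, 0.935 and 0.623 RPKM with NH4NO3, and its groups did not overlap, but the adjusted p was 0.099. PORB gave 82.8% ± 1.83 of the POR total with Gln and 85.1% ± 0.368 with NH4NO3 (exact permutation p = 0.10, the smallest possible). PORC gave 16.9% ± 1.80 with Gln and 14.7% ± 0.402 with NH4NO3, with overlap (exact permutation p = 0.20). Without Gln replicate 1 the difference shrank to -1.42 percentage points for PORB and to 1.33 for PORC, against -2.34 and 2.23 with all libraries.

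At the end of the branch CHLG attaches the phytyl tail and CAO oxidises chlorophyll a to chlorophyll b. CHLG was at 42.4, 40.1 and 40.5 RPKM with Gln, against 53.4, 55.7 and 51.7 RPKM with NH4NO3 (log2 fold change -0.38 ± 0.06, limma adjusted p = 0.0012). CAO (AT1G44446, chromosome 1 at 16848308 to 16851271, minus strand) was at 21.2, 19.1 and 21.1 RPKM with Gln, against 33.2, 38.0 and 34.8 RPKM with NH4NO3. CAO fell by 0.76 on the log2 scale (SE 0.08, limma adjusted p = 5.8e-05), the third largest decrease of the set after UPM1 and GUN4.

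**Figure D3:**
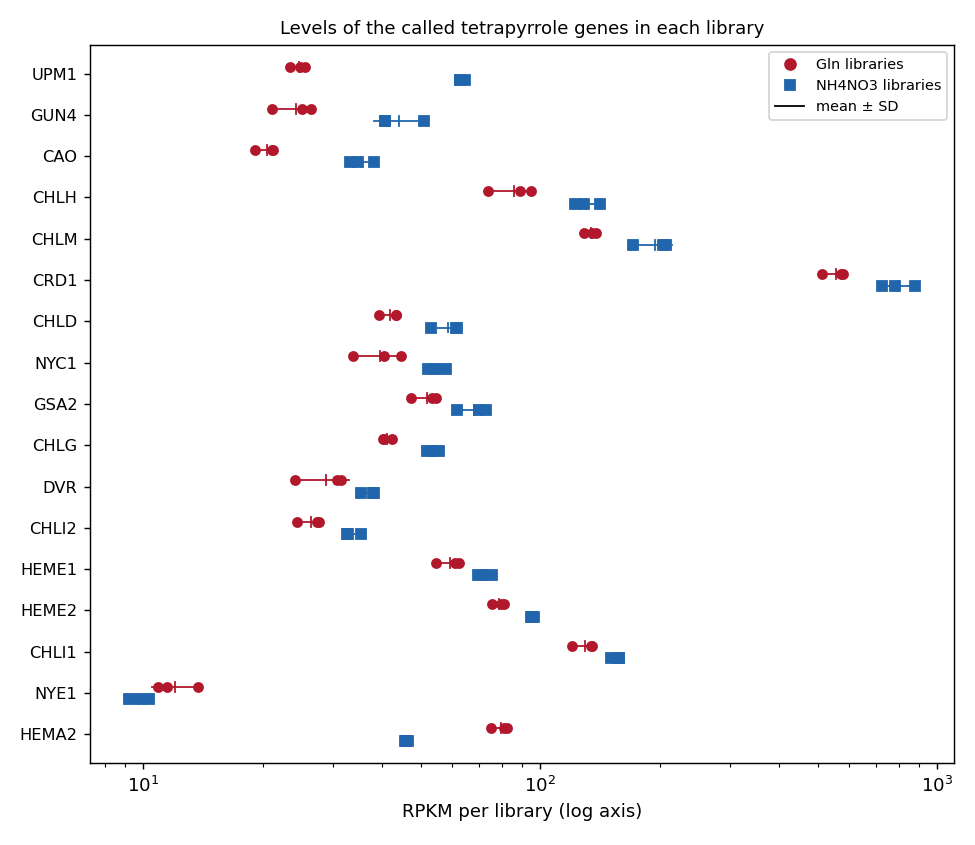
RPKM in each library on a log axis for the 17 genes that passed the test, with the mean ± SD of each group (3 libraries each). The 17 were chosen by that test on these same libraries, and in all of them the Gln and NH4NO3 points do not overlap. Of all genes tested, 27.1% lay lower and 26.5% higher in Gln without overlap. UPM1, GUN4 and CAO at the top are furthest apart toward lower Gln values.

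Neither ferrochelatase gene passed the test. FC1 was at 141, 148 and 137 RPKM with Gln, against 143, 136 and 140.0 RPKM with NH4NO3, and the groups overlapped. Its change of 0.03 had a 95% interval of -0.11 to 0.17, but its deposited multi-read ratio was 0.196, so its level is uncertain if shared reads were assigned to it. FC2, the isoform tied to photosynthetic tissue, was at 15.3, 13.5 and 13.1 RPKM with Gln, against 16.5, 18.3 and 14.99 RPKM with NH4NO3. Its change of -0.23 (adjusted p = 0.067) was called under 4 of the 13 alternatives. FC1 made up 91.0% ± 0.725 of the pair with Gln and 89.4% ± 1.13 with NH4NO3 (exact permutation p = 0.20).

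Among the genes of breakdown and the chlorophyll b cycle, 1 fell, 1 rose and 5 did not pass, and none rose without NH4NO3 replicate 2. The shares over all genes tested were 19.8% lower and 21.4% higher. Without NH4NO3 replicate 2, 3305 of all genes rose in place of 4126. NYC1, a chlorophyll b reductase, was at 44.6, 40.3 and 33.7 RPKM with Gln, against 52.3, 57.9 and 54.3 RPKM with NH4NO3. It fell by 0.47 on the log2 scale (limma adjusted p = 0.0041). Its partner NOL averaged 14.8 ± 1.67 RPKM with Gln and 16.2 ± 0.681 RPKM with NH4NO3 (adjusted p = 0.29 by limma). HCAR, which completes the return to chlorophyll a, averaged 8.54 ± 0.876 RPKM with Gln and 10.101 ± 0.154 RPKM with NH4NO3 (adjusted p = 0.065 by limma). NYE1, the main STAY-GREEN magnesium dechelatase, was at 13.7, 10.9 and 11.5 RPKM with Gln, against 10.3, 9.80 and 9.21 RPKM with NH4NO3. It passed narrowly as higher (log2 fold change 0.27 ± 0.09, limma adjusted p = 0.047), and 7 of the 13 alternatives did not keep the call, among them the omission of NH4NO3 replicate 2 (adjusted p = 0.10). NYE2 was at 8.93, 5.10 and 4.76 RPKM with Gln, against 4.47, 6.13 and 4.53 RPKM with NH4NO3. Gln replicate 1 stood alone at the top and the other libraries overlapped (adjusted p = 0.37 by limma). PPH, which removes the phytyl tail during breakdown, averaged 39.0 ± 4.45 RPKM with Gln and 35.9 ± 1.25 RPKM with NH4NO3. PAO, which opens the ring, averaged 31.7 ± 3.80 RPKM with Gln and 28.2 ± 1.06 RPKM with NH4NO3. For PPH and PAO the 95% intervals of the log2 change were -0.08 to 0.30 and -0.04 to 0.35.

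Taken by level per gene length, the set spanned 1.02 RPKM (PORA) to 676 RPKM (CRD1) as means over the 6 libraries, with a median of 54.0 RPKM. PORA passed the filter (a mean of 1 RPKM or more) through its Gln libraries, since its NH4NO3 mean was 0.816 RPKM. The summed level of the 12 chlorophyll branch genes was 1529, 1329 and 1553 RPKM with Gln, against 1801, 2048 and 1868 RPKM with NH4NO3. That of the 11 common-step genes was 887, 822 and 873 RPKM with Gln, against 929, 944 and 884 RPKM with NH4NO3. The branch sum was lower in every Gln library than in any NH4NO3 library, a difference of -22.8% between the means, whereas Gln replicate 1 slightly exceeded the lowest NH4NO3 library in the sum over common steps. Within the Gln group, replicate 2 had the lowest value for all 12 branch genes, and within the NH4NO3 group replicate 2 had the highest for 10 of 12.

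Organ markers, in lists chosen with earlier results of these data known, also differed between the groups. Of all genes tested, 19.8% fell and 21.4% rose, or 3816 and 4126 genes. These counts were 3085 and 3513 without Gln replicate 2, and 2595 and 3305 without NH4NO3 replicate 2. All 14 leaf photosynthesis markers had negative log2 fold changes and 11 fell, with a median of -0.46 and a summed level of 46190 to 56242 RPKM with Gln, against 58881 to 69106 RPKM with NH4NO3. Without Gln replicate 2, 8 of the 14 fell, and without NH4NO3 replicate 2, 7 fell. Of 9 shoot epidermis and leaf polarity markers tested, 8 fell and 1 did not pass, with a summed level over all 10 listed of 56.3 to 59.6 RPKM with Gln, against 87.8 to 93.3 RPKM with NH4NO3. All 7 root hair markers rose, with a summed level of 69.2 to 88.7 RPKM with Gln, against 29.5 to 32.1 RPKM with NH4NO3. Of 9 other root markers tested 4 rose and 5 did not pass, with a summed level over all 11 listed of 105 to 147 RPKM with Gln, against 91.9 to 103 RPKM with NH4NO3. Without Gln replicate 2, 7 shoot epidermis markers fell, and 3 other root markers rose and 1 fell. Without NH4NO3 replicate 2, 6 root hair markers and 3 other root markers rose. The root meristem genes PLT1 and PLT2 and the stomatal gene MUTE were under 1 RPKM on average and were not tested. The part of these organ markers in the changes of the tetrapyrrole genes was not tested.

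**Figure D4:**
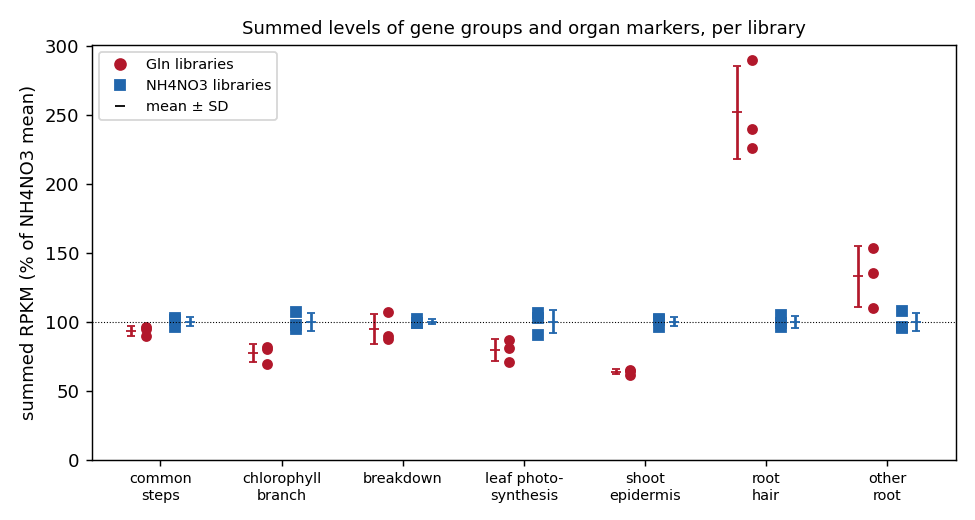
Summed RPKM of gene groups and organ marker lists in each library, as % of the NH4NO3 mean of the same list, with mean ± SD (3 libraries per group). With Gln the chlorophyll branch lies at 69.8% to 81.5%, the leaf photosynthesis markers at 71.1% to 86.5% and root hair markers at 226% to 290%. Sums are weighted toward abundant genes. With Gln, LHCB1.3 averaged 18277 RPKM of a leaf photosynthesis sum of 51625 RPKM. CRD1 and PORB averaged 556 and 336 RPKM of a branch sum of 1471 RPKM.

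Of 27 further tetrapyrrole genes that are not in the set, 23 passed the filter on low values. Of these 10 fell, 2 rose and 11 did not pass, with a median log2 fold change of -0.13. Over all genes tested, 19.8% fell and 21.4% rose. Without Gln replicate 2, 8 of the further genes fell, and without NH4NO3 replicate 2, 9 fell. Of all genes tested, 3085 and 2595 then fell, against 3816 with all libraries. CHLP, the geranylgeranyl reductase that makes the phytyl tail, was at 561, 489 and 586 RPKM with Gln, against 726, 881 and 853 RPKM with NH4NO3 (log2 fold change -0.59 ± 0.10, limma adjusted p = 0.0015). CYP89A9, which acts on chlorophyll breakdown products, was at 19.0, 15.8 and 14.0 RPKM with Gln, against 21.5, 25.5 and 23.3 RPKM with NH4NO3, and fell by 0.51. Other genes of breakdown in this list also fell and were named after their values were seen. They were ACD2, the red chlorophyll catabolite reductase, TIC55-II, a hydroxylase of chlorophyll catabolites, and SGRL, a relative of the STAY-GREEN proteins. Their log2 fold changes were -0.36 for ACD2, -0.32 for TIC55-II and -0.38 for SGRL. TIC55-II did not pass without Gln replicate 2 (limma adjusted p = 0.0504). MES16 and CLH2, also genes of breakdown in this list, did not pass, with log2 fold changes of 0.17 and 0.04. An oxygenase of heme and a chlorophyllase rose. The heme oxygenase HO3 was at 5.68, 4.39 and 4.05 RPKM with Gln, against 1.904, 1.03 and 1.52 RPKM with NH4NO3 (log2 fold change 1.20 ± 0.16, limma adjusted p = 0.00028). The chlorophyllase CLH1, also known as a coronatine-induced gene, was at 18.8, 18.0 and 18.0 RPKM with Gln, against 7.89, 7.34 and 7.60 RPKM with NH4NO3 (log2 fold change 1.16 ± 0.07, limma adjusted p = 3.1e-06).

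Transcription factors known to act on chlorophyll genes were measured beside the set. Of 18, 7 fell, 4 rose and 7 did not pass, and 2 rose without either Gln replicate 2 or NH4NO3 replicate 2. Over all 19284 genes tested, 19.8% fell and 21.4% rose. The number that rose over all genes was 4126, and 3513 and 3305 without Gln replicate 2 and NH4NO3 replicate 2 in turn. The factors that rose were NAP, ORE1, ABI5 and HY5. NAP and ORE1 are NAC factors of leaf senescence. ABI5 is a bZIP factor of abscisic acid signalling, and HY5 is a bZIP activator of light-responsive genes. NAP averaged 10.3 ± 1.26 RPKM with Gln and 5.23 ± 0.647 RPKM with NH4NO3 (log2 fold change 0.85, limma adjusted p = 0.00029), and ABI5 averaged 3.61 ± 0.0550 RPKM with Gln and 2.36 ± 0.395 RPKM with NH4NO3 (log2 fold change 0.46). HY5 averaged 11.5 ± 1.12 RPKM with Gln and 8.98 ± 0.304 RPKM with NH4NO3 (log2 fold change 0.32, limma adjusted p = 0.014), and ORE1 averaged 18.4 ± 2.999 RPKM with Gln and 13.8 ± 0.352 RPKM with NH4NO3 (log2 fold change 0.37, limma adjusted p = 0.021). The HY5 and ORE1 calls were lost without Gln replicate 2 (adjusted p = 0.0584 for HY5 and 0.0763 for ORE1) and without NH4NO3 replicate 2 (adjusted p = 0.0514 for HY5 and 0.0584 for ORE1). GLK2, an activator of chlorophyll synthesis and light-harvesting genes, was at 11.1, 14.4 and 9.92 RPKM with Gln, against 21.7, 30.0 and 25.7 RPKM with NH4NO3 (log2 fold change -1.07 ± 0.14, limma adjusted p = 0.00031). Its relative GLK1 overlapped between the groups, at 18.1, 14.7 and 14.1 RPKM with Gln, against 14.8, 18.8 and 16.8 RPKM with NH4NO3 (adjusted p = 0.50). GNC, a GATA factor known for its response to nitrate and for promoting greening, was at 2.09, 3.15 and 1.92 RPKM with Gln, against 4.85, 6.89 and 5.13 RPKM with NH4NO3, and fell by 0.97. Its paralogue CGA1 was at 1.18, 1.33 and 0.824 RPKM with Gln, against 0.979, 1.91 and 1.07 RPKM with NH4NO3, with overlap (adjusted p = 0.60). The phytochrome-interacting factors PIF1 and PIF4, of which PIF1 is known to hold back protochlorophyllide build-up in the dark, fell by 1.14 and 1.04. PIF1 was at 2.18, 2.28 and 2.19 RPKM with Gln, against 5.96, 6.74 and 5.56 RPKM with NH4NO3, and PIF4 was at 25.8, 23.7 and 28.7 RPKM with Gln, against 50.2, 60.7 and 53.2 RPKM with NH4NO3. PIF5, PIF3 and FHY3 also fell, by 0.93, 0.48 and 0.32 on the log2 scale.

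**Figure D5:**
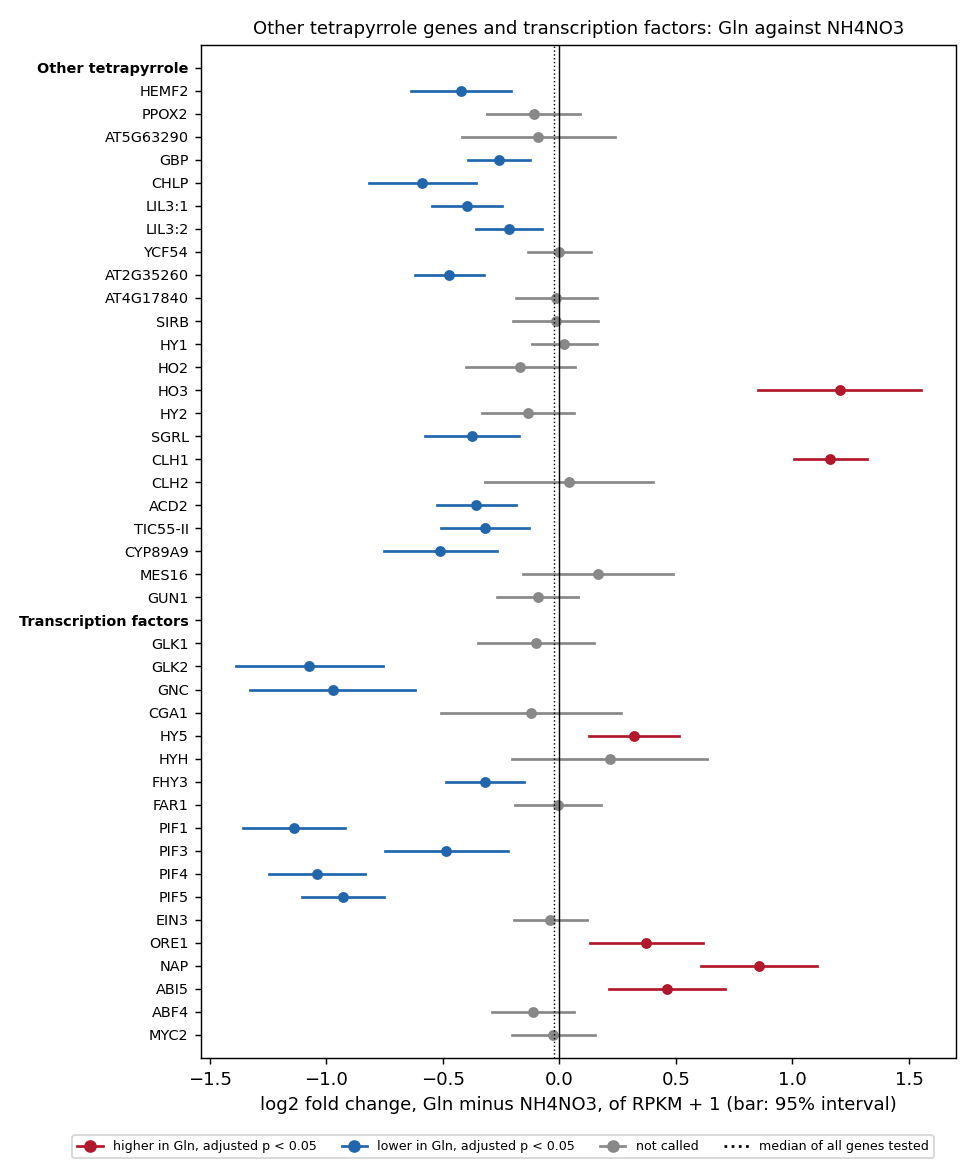
Log2 fold change, Gln minus NH4NO3, of log2(RPKM + 1) with 95% intervals for 23 further tetrapyrrole genes and 18 transcription factors (3 libraries per group). HO3 and CLH1 lie above 1 on the right, and GLK2, GNC, PIF1, PIF4 and PIF5 lie near -1 on the left. NAP is the factor furthest to the right at 0.85.

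Markers of leaf senescence, a state in which chlorophyll is broken down, went both ways. Of 8 tested, 4 rose, 3 fell and 1 did not pass, and 2 fell without either Gln replicate 2 or NH4NO3 replicate 2. The shares over all genes tested were 21.4% higher and 19.8% lower. The 3816 lower genes became 3085 without Gln replicate 2 and 2595 without NH4NO3 replicate 2. SAG14, a blue copper protein, averaged 1150 ± 104 RPKM with Gln and 393 ± 34.5 RPKM with NH4NO3. SAG13, a short-chain dehydrogenase, averaged 21.9 ± 3.79 RPKM with Gln and 9.85 ± 1.26 RPKM with NH4NO3, and SAG101, an acyl hydrolase, averaged 30.8 ± 2.23 RPKM with Gln and 18.7 ± 0.726 RPKM with NH4NO3. SAG21 fell, at 823 ± 53.2 RPKM with Gln and 1297 ± 107 RPKM with NH4NO3. SAG12, the protease most often used to mark developmental senescence, had 0 reads in all 6 libraries.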

How the data were processed

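The authors deposited 1 table of RPKM values per gene and library, scaled by TMM (trimmed mean of M values), per the file headers and name. The submitters' processing notes list TAIR10 and SAMtools. Aligner and counter: not given in the sources used here. Strand is not marked by the TruSeq RNA kit that the labels name. The deposited maximum multi-read ratio is a fraction from 0 to 1 that the header does not define. Each library has a step that turns value times length into reads plus an offset of 0.5, and for low genes (20 reads or fewer) 98.1% to 98.8% of these came out whole to within 0.05. Binomial intervals cover counting error only.

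Those genes whose mean reached 1 RPKM entered a test by limma 3.58.1 (R 4.3.3) on log2(RPKM + 1) with a mean-variance trend, without covariates, 2-sided, over all 6 libraries. The test was checked on simulated data in which 200 genes were changed and all genes shared 1 setting for the spread between libraries. These data differ from that setting, since 7942 genes passed, so the check does not show how well the calls hold here. Isoform shares, 9 in all, were compared by an exact permutation test and adjusted over the 9. The genes and lists were chosen with earlier results of these data known. Values are given for up to 10 lower and 10 higher genes of the set with the largest called change, for all isoform families, and for up to 4 called genes of each further list plus the GLK and GATA factors. SIRB, ACD2, TIC55-II, SGRL, MES16, CLH2, PIF3, PIF5, FHY3 and the factors that rose were named after their values were seen. Alternatives were pseudocounts of 0.1 and 5, no filter or a filter at 5 RPKM, quantile normalization, voom weights on implied reads, the replicate number as a block, and leaving out each library. Coordinates, neighbours and promoters are from RefSeq TAIR10.1, where all 35 genes matched.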

Additional observations from a re-analysis of the deposited data

How the results depend on the processing

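Of the 35 tetrapyrrole genes, 13 that fell and HEMA2 kept their calls under all 13 alternatives, CHLI1 and DVR lost theirs under at least 1, and 7 genes otherwise not called were called under at least 1. The number that fell was 14 to 20, with 20 after quantile normalization and 14 to 17 when single libraries were left out. The number that rose was 2, but 1 with no filter on low values, 1 after quantile normalization and 1 to 3 when single libraries were left out. NYE1 is the gene lost. The counts over all genes tested also moved. After quantile normalization 4429 of all genes fell and 3694 rose, against 3816 and 4126 before it. The median log2 fold change over all genes was then -0.05 in place of -0.02. When single libraries were left out, 2595 to 3343 of all genes fell. With a filter at a mean of 5 RPKM 1 further tetrapyrrole gene rose, in place of 2, since HO3 is then not tested. The difference in NYE2 share was -0.32 percentage points and 0.0194 after quantile normalization, and -3.27 to 1.98 when single libraries were left out. That in HEME2 share was -0.32 to 0.53. The PORB difference was -3.25 to -1.42, the PORC difference 1.33 to 3.13, and FC1, at 1.68 with all libraries, was 1.06 without NH4NO3 replicate 2. The CHLI2 difference of -0.82 was -0.54 without NH4NO3 replicate 2 and -0.51 after quantile normalization. The median log2 fold change of the 35 genes was -0.25 to -0.15 when single libraries were left out. The cause of these shifts was not tested. With the replicate number as a block, 15 genes fell and 2 rose, the same 17 genes, and 7274 genes in all passed in place of 7942. Same-numbered libraries deviated from their group means with correlations of -0.07, -0.10 and -0.01. Such small values cannot show whether same-numbered libraries shared a plate or day, which no label gives. In 16 of the 35 genes another annotated gene overlaps, by over 200 bases in 4, and reads of the strands cannot be separated.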
